A study of Homo sapiens with 6 samples.

Results

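Interferon-stimulated genes are transcripts that rise when a cell senses interferon or viral nucleic acid, and 43 of them were followed here in cells of the human glioblastoma line U87 that overexpressed the microRNA miR-151a. Of the 43, 42 were measured by at least 1 probe set that names no other gene, out of 18132 genes measured in all. The remaining member, USP18, was covered by a probe set that names several genes, and no value is given for it. Each gene is represented by its brightest probe set over the 6 samples. The groups were U87 cells overexpressing miR-151a (labelled miR-151a UP, 3 samples) and U87 cells overexpressing miR-NC (3 samples), an abbreviation the labels do not spell out and which is taken here as the control, so that neither group was untreated. The labels do not state the arm expressed, the means of delivery or the time of harvest. The labels do not say whether the 3 samples of each group came from separate cultures, so p-values reflect only the spread between the samples at hand, possibly a technical one.

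Type I interferons bind the receptor chains IFNAR1 and IFNAR2, whose kinases JAK1 and TYK2 start a signal that ends in a complex with IRF9. This complex binds a DNA element of interferon-stimulated genes, the interferon-stimulated response element (ISRE). Interferon gamma acts through a second element, the gamma-activated site (GAS), and through the factor IRF1. Many products of these genes recognise viral RNA, block viral entry or replication, or regulate the response itself.

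The 6 arrays had median probe set intensities from 57.1 to 58.6, and Pearson correlations over genes were 0.9982 to 0.9986 within groups and 0.9958 to 0.9961 between groups. Of 10 markers listed for the line, VIM, CD44, SPARC and TNC had intensities between 2433 and 19565. The others were lower: CHI3L1 at 240 to 288, NES at 129 to 169, OLIG2 at 52.7 to 67.9 and SOX2 at 44.8 to 51.8. The glial markers GFAP and S100B lay between 60.0 and 63.6 and between 17.5 and 22.0. Of 13 measured immune cell markers, 11 lay below the array median in all 6 samples and PTPRC, the pan-leukocyte marker, had at most 9.40. Of the line's markers, NES and SPARC were lower past the threshold (log2 fold changes -0.31 and -0.30). The summed intensity of the immune markers was 1324 to 1409 with miR-151a and 1295 to 1378 with miR-NC, most of it from CD68. Of these markers 1, CD163, passed the threshold, as higher (16.3 ± 2.83 against 9.90 ± 0.539, SD, n = 3). ITGAM, another myeloid marker, was higher without overlap (24.8, 18.1 and 25.2 against 17.4, 17.2 and 15.2) but did not pass (log2 fold change 0.42, limma adjusted p = 0.058). It passed under 5 of 14 alternatives, without miR-151a replicate 2 among them (adjusted p = 0.0053, range 0.00094 to 0.16), and 2 of its 3 probe sets were higher past the threshold over probe sets. CSF1R, also a myeloid marker, was lower without overlap and did not pass (log2 fold change -0.22, limma adjusted p = 0.064). For the beta-actin control, the 3 prime over 5 prime log2 ratio was 0.29 ± 0.02 (SD, n = 3) in miR-151a samples and 0.40 ± 0.03 (SD, n = 3) in controls, without overlap, and for GAPDH it was 0.05 and 0.04, with overlap. These values stand beside every result, and their part in the results was not tested. The microRNA itself was not analysed here, so the labels were not checked by its level.

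Promoters of 6 genes are shown as examples. GBP1, IFI35 and IFI6 passed the test. ISG15 and IFIT1 are widely used interferon response genes that did not. IRF1 is the interferon regulatory factor with the largest change. Each sequence runs 5′ to 3′ from 250 bases before to 50 bases after the gene's start in RefSeq (GRCh38.p14). Capitals mark matches on either strand to the ISRE letters GAAANNGAAA, to the GAS letters TTCNNNGAA or to the NF-kB (kappa B) consensus. The printed matches of different motifs do not overlap each other.
GBP1 promoter, chr1:89065159-89065458, minus strand: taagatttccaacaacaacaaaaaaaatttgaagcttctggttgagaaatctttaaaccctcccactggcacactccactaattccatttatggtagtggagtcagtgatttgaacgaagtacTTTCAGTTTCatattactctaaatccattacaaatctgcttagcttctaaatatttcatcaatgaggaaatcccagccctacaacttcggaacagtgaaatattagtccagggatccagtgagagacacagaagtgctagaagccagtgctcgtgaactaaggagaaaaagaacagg
IFI35 promoter, chr17:43006534-43006833, plus strand: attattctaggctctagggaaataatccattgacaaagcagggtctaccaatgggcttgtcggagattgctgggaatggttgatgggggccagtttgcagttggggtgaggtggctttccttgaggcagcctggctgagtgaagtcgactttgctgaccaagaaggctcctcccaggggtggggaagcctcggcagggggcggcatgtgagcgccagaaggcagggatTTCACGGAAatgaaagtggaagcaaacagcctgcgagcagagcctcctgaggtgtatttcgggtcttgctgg
IFI6 promoter, chr1:27672143-27672442, minus strand: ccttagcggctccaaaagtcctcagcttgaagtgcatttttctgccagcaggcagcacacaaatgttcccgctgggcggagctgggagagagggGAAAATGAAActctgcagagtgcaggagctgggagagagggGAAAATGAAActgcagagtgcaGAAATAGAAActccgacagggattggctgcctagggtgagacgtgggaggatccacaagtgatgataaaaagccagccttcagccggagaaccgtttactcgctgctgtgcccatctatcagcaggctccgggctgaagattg
ISG15 promoter, chr1:1013247-1013546, plus strand: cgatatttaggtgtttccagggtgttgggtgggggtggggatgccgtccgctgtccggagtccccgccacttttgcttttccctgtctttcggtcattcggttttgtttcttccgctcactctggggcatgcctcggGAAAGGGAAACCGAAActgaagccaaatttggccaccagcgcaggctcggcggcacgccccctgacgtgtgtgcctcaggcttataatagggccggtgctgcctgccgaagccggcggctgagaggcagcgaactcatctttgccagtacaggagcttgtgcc
IFIT1 promoter, chr10:89392373-89392672, plus strand: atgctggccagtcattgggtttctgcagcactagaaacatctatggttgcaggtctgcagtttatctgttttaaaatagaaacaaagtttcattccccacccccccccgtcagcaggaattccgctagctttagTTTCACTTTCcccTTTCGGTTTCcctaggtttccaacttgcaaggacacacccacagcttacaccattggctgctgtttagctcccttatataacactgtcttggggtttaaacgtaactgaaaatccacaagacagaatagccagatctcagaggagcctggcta
IRF1 promoter, chr5:132490724-132491023, minus strand: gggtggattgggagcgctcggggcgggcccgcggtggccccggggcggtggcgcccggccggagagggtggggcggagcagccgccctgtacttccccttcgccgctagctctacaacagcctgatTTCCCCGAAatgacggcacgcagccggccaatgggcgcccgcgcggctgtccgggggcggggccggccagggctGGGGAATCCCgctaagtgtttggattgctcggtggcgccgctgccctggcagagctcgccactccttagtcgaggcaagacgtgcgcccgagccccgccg

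The GBP1 promoter held 1 ISRE match, starting 127 bases before the gene's start, and the IFI35 promoter held 1 GAS match at 22 bases and no ISRE match. In the IFI6 promoter 3 ISRE matches lay at 156, 115 and 93 bases before the start. ISG15 had 2 overlapping ISRE matches at 113 and 107 bases and IFIT1 had 2 at 116 and 103. The IRF1 promoter had a GAS match at 124 bases and a kappa B match at 50 bases. RefSeq promoters were found for 35 of the 42 measured members. No promoter was found for GBP2 and IFITM2, which also passed the test, or for IFIT2, MX2, OAS2, OASL and TRIM22. Of the 35 genes, 26 (74.3%) had an ISRE match in at least 1 promoter, against 4.38% of 27305 genes with a promoter. GAS matches were found for 11 of the 35 (31.4%, against 9.38%) and kappa B matches for 6 (17.1%, against 7.09%). These are letter matches, not measured binding.

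The share of interferon-stimulated genes that passed the test was near that of all genes. By limma with Benjamini-Hochberg adjustment over all genes, at an adjusted p under 0.05, 3 of 42 members were higher with miR-151a (GBP2, IFI35 and GBP1) and 2 were lower (IFI6 and IFITM2). Of all genes tested, 7.27% were higher and 8.11% were lower, and the members' shares of 7.14% and 4.76% were near this background. The median log2 fold change was 0.04 over the 42 members and -0.01 over all genes, and 23 members were above 0 and 19 below, where 47.4% of all genes were above 0. The mean log2 level of the 42 members was 6.57, 6.59 and 6.58 in the miR-151a samples and 6.53, 6.53 and 6.55 in the miR-NC samples. Every fold change given is a difference of log2(intensity + 1), and this scale shrinks the change of a dim gene. In RNA from whole cultures, a change in the share of cells that express a gene and a change in RNA per cell cannot be told apart.

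On the log2(intensity + 1) scale, which shrinks the change of a dim gene, the intervals were narrow enough to bound the intensity change of most members. For 41 of 42, the 95% interval of the fit lay within a 1.5-fold change in either direction, as it did for 97.1% of all genes, and GBP2 was the exception; a 2-fold bound held for all 42 and for 99.4% of all genes. The 37 members that did not pass had log2 fold changes between -0.11 and 0.18, and their furthest interval bounds were -0.35 for IFITM1 and 0.36 for ISG20. A p above the threshold does not show that these genes were equal in the groups. Without regard to the fit, all miR-151a values lay on 1 side of all controls for 10 members that were higher and 4 that were lower, shares to be read against 15.1% and 19.4% of all genes. All 6 intensities lay below the array medians for 13 members, of which 0 passed (2 with groups that did not overlap), and for BST2, MX1 and RSAD2 they lay below the lower quartiles as well. How far the intensity of such dim genes follows their RNA was not tested, so their bounds hold for intensity only.

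**Figure D1:**
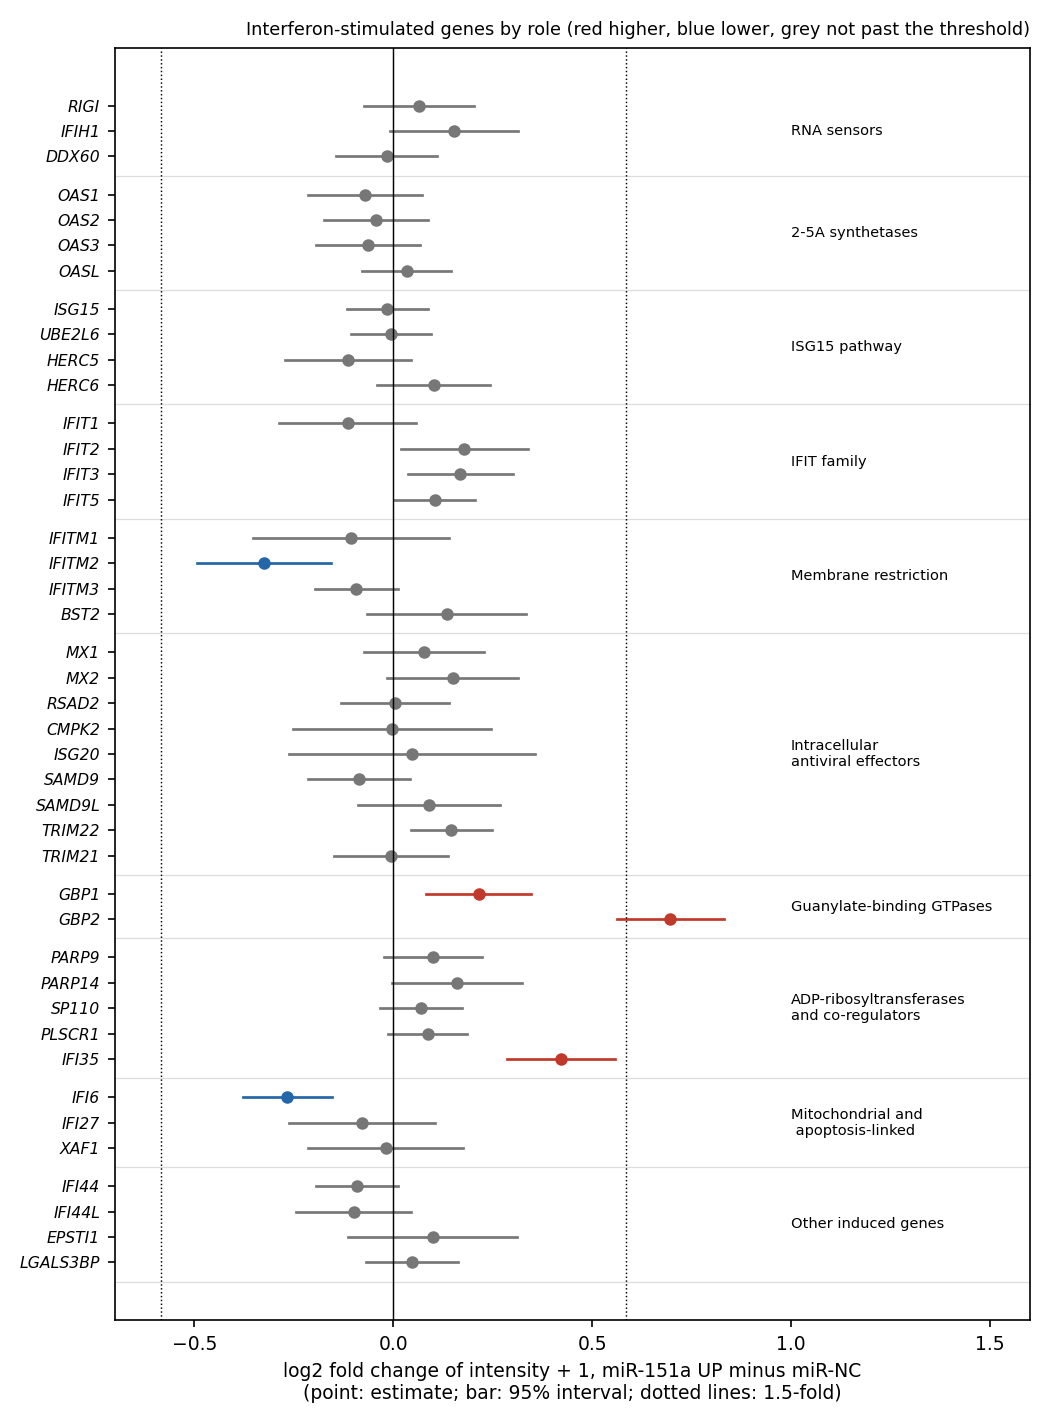
Log2 fold change of each measured interferon-stimulated gene between miR-151a UP and miR-NC samples (point) with its 95% interval (bar), on the log2(intensity + 1) scale, grouped by role, with dotted lines at a 1.5-fold change. GBP2, IFI35 and GBP1 (red) passed the threshold as higher and IFI6 and IFITM2 (blue) as lower, and the intervals of all members but GBP2 stayed inside the dotted lines.

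The largest change was in GBP2, an interferon-inducible guanylate-binding GTPase of cell-autonomous defence. GBP2 had intensities of 182, 198 and 174 with miR-151a and 116, 113 and 112 with miR-NC. The groups did not overlap, and the 3 miR-151a samples were the 3 highest. The means were 185 ± 12.4 and 113 ± 2.37 (SD, n = 3), a rise of 62% (log2 fold change 0.70, 95% interval 0.56 to 0.83, limma adjusted p = 0.00037), and its second, dimmer probe set had a log2 fold change of 1.08. GBP1, its neighbour on chromosome 1 and a GTPase of the same family, rose less. GBP1 had intensities of 106, 113 and 114 with miR-151a and 101, 90.6 and 96.1 with miR-NC. Its log2 fold change was 0.21 (95% interval 0.08 to 0.35, limma adjusted p = 0.041), and 3 of its 5 probe sets were higher past the threshold over probe sets. The limma call of GBP1 was lost without miR-151a replicate 2 or 3 (adjusted p = 0.11 and 0.12), without miR-NC replicate 2 or 3 (0.13 and 0.10) and with median centring (0.057), within a range of 0.013 to 0.13 over the alternatives. GBP family members are similar in sequence, so how their signal was split is uncertain.

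IFI35 encodes an interferon-induced leucine zipper protein that acts in innate signalling. IFI35 had intensities of 302, 338 and 326 with miR-151a and 249, 230.1 and 241 with miR-NC. The miR-151a samples were the 3 highest, without overlap. The rise was 34% (log2 fold change 0.42, 95% interval 0.29 to 0.56, limma adjusted p = 0.0031), and its other probe set was at 0.36 and also passed. Among the ADP-ribosyltransferases and co-regulators the other 4 members did not pass. PARP14, a mono-ADP-ribosyltransferase, was at 0.16 (adjusted p = 0.18) by its brightest probe set, while 2 of its 6 probe sets were higher past the threshold, at 0.28 and 0.35, and the other 3 lay between 0.02 and 0.09 and did not pass. PARP9, which binds ADP-ribose and partners with the ubiquitin ligase DTX3L, was at 0.10, the nuclear body protein gene SP110 at 0.07 and PLSCR1, a phospholipid scramblase, at 0.09. SP110 had 240.4, 245 and 249.6 against 228, 237 and 236 and PLSCR1 505, 490.1 and 492 against 468, 459 and 474. For SP110 and PLSCR1 the groups did not overlap, the miR-151a samples being higher. Their probe sets differed. Of the 6 for PLSCR1, 1 dim one was higher past the threshold over probe sets, and those other than the brightest ran from -0.12 to 0.24. Of the 5 for SP110, 0 passed, and those other than the brightest ran from -0.03 to 0.16.

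IFI6, which encodes a small mitochondrial and endoplasmic reticulum protein that counters apoptosis, was lower with miR-151a. IFI6 had intensities of 166, 175 and 169 with miR-151a and 201, 201 and 213 with miR-NC. The groups did not overlap, and the fall was 16.8% (log2 fold change -0.27, 95% interval -0.38 to -0.16, limma adjusted p = 0.0093). IFI6 had 1 probe set. IFI27, a related gene of the same protein family, had intensities of 77.6, 69.6 and 63.5 with miR-151a and 69.7, 77.6 and 74.8 with miR-NC, which overlapped (log2 fold change -0.08). XAF1, an antagonist of the apoptosis inhibitor XIAP, was at -0.02 with overlapping groups.

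**Figure D2:**
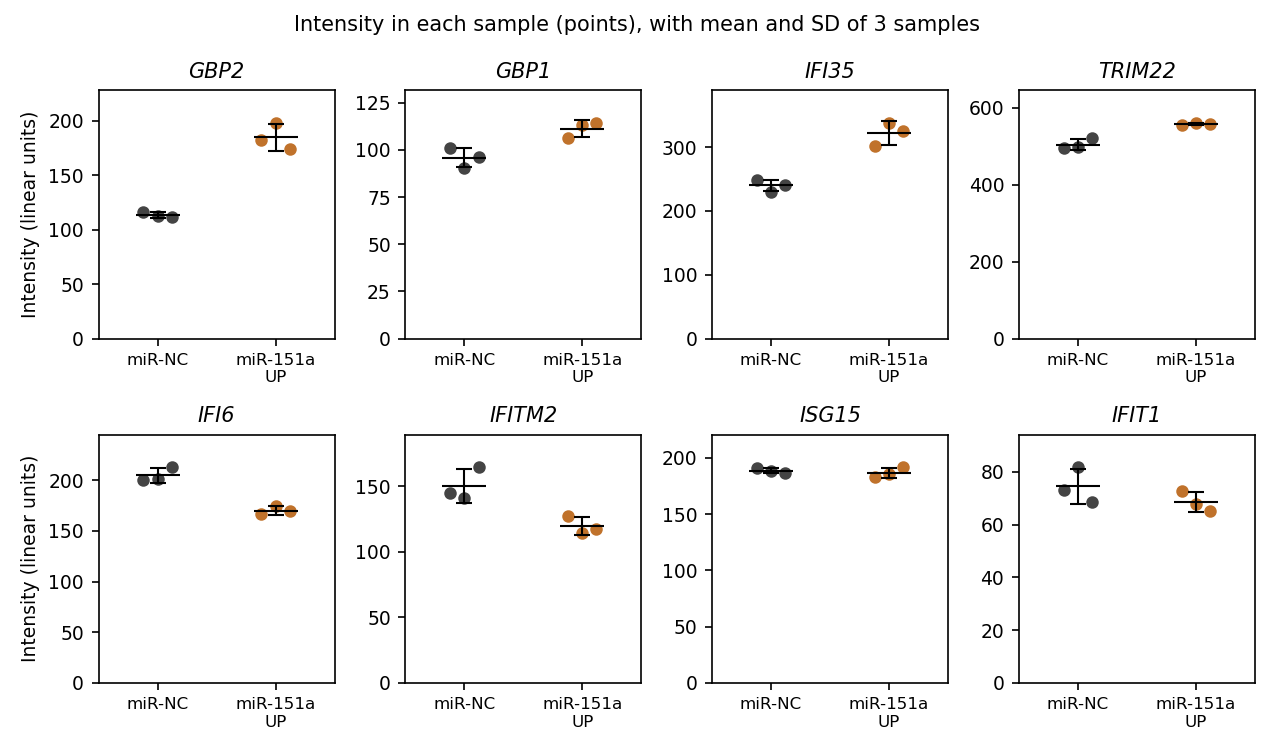
Intensity in each of the 6 samples (points) with the mean and SD of each group, on linear axes that start at 0, for 8 interferon-stimulated genes. The groups of GBP2, GBP1, IFI35, TRIM22, IFI6 and IFITM2 did not overlap, and those of ISG15 and IFIT1 did.

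IFITM proteins sit in cell and endosomal membranes and block the fusion of enveloped viruses. IFITM2 had intensities of 127, 114 and 117 with miR-151a and 145, 141 and 165 with miR-NC. These groups did not overlap, and IFITM2 fell by 20.1% (log2 fold change -0.32, 95% interval -0.49 to -0.16, limma adjusted p = 0.022). Its second probe set was at -0.08 and did not pass, and with the mean over its probe sets the log2 fold change was -0.20. The limma call was lost without miR-151a replicate 2 or 3 (adjusted p = 0.069 and 0.071) or miR-NC replicate 1 or 3 (0.051 and 0.056), within a range of 0.00083 to 0.071 over the alternatives. IFITM3 had intensities of 285, 272 and 276 against 288, 300.4 and 299.8, lower without overlap, but did not pass (log2 fold change -0.09, limma adjusted p = 0.22). IFITM1, which was dim, had 35.9, 28.1 and 26.5 against 30.4, 33.2 and 33.4, and these overlapped (log2 fold change -0.11). The 3 IFITM genes lie side by side on chromosome 11 and are near-identical in part, so how their signal was split is uncertain. BST2, or tetherin, which holds budding virus particles at the cell surface, was dim, with intensities of at most 13.3, and had a log2 fold change of 0.13.

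The sensors of viral RNA did not pass. RIGI, which recognises RNA ends that lack a host cap, had intensities of 102, 114 and 109 with miR-151a and 107, 105 and 98.2 with miR-NC, and the groups overlapped. IFIH1 (MDA5), a sensor of long double-stranded RNA, had 21.5, 22.2 and 25.1 against 20.9, 21.4 and 19.3, higher without overlap, but did not pass (log2 fold change 0.15, limma adjusted p = 0.19). DDX60, a helicase linked to RIGI signalling, was at -0.02. The oligoadenylate synthetases make the second messenger that activates RNase L when double-stranded RNA is present. OAS3 had intensities of 17.9, 19.3 and 19.7 with miR-151a and 18.9, 20.0 and 20.8 in controls. OAS1, OAS2 and OAS3 had log2 fold changes of -0.07, -0.04 and -0.06, and OASL, a family member without synthetase activity, was at 0.03. The groups overlapped for each of these 4 genes.

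ISG15 encodes a ubiquitin-like modifier that is attached to proteins in interferon-treated cells and is among the most responsive interferon targets. ISG15 had intensities of 183, 186 and 192 with miR-151a and 191, 188 and 187 with miR-NC. These values overlapped, and the log2 fold change of -0.01 had a 95% interval of -0.12 to 0.09. UBE2L6, the conjugating enzyme for ISG15, had 980.4, 1020 and 1017 against 995, 1014 and 1019 and was at -0.01 (95% interval -0.11 to 0.10). HERC5, its main human ligase, was at -0.11 and the related HERC6 at 0.10, with overlapping groups. No member of this pathway passed, with 0 of 4 at an unadjusted limma p under 0.05.

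IFIT proteins bind foreign RNA and restrain its translation. IFIT1, which recognises incompletely capped RNA, had intensities of 73.0, 67.8 and 65.3 with miR-151a and 73.2, 81.8 and 68.6 with miR-NC, and these overlapped (log2 fold change -0.11). The other members of the family were each higher with miR-151a without overlap, as were 15.1% of all genes, yet did not pass in limma. IFIT3, which stabilises IFIT1 on RNA, had 109, 113 and 123 against 100.3, 103 and 102 (log2 fold change 0.17, adjusted p = 0.09). IFIT2, which promotes apoptosis, had 34.3, 38.2 and 41.4 against 33.1, 33.9 and 33.2 (log2 fold change 0.18, adjusted p = 0.13). IFIT5, which binds RNA with an uncapped end, had 215, 214 and 213 against 193, 202 and 203 (0.10, adjusted p = 0.16). The second probe set of IFIT5 was at 0.01 and that of IFIT2 at 0.21, and neither passed over probe sets. IFIT2, IFIT3, IFIT5 and TRIM22 were the 4 members with an unadjusted limma p under 0.05 that missed the adjusted threshold. Without miR-151a replicate 1, IFIT2 passed in limma (adjusted p = 0.036, range 0.036 to 0.31 over the alternatives), and with a pseudocount of 32 IFIT3 passed (0.045).

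Among 9 intracellular antiviral effectors, 0 passed with the brightest probe set, and 1 (TRIM22) had an unadjusted limma p under 0.05. TRIM22, a ubiquitin ligase that restricts several viruses, had intensities of 556, 561 and 557 with miR-151a and 494, 497 and 520.3 with miR-NC. The groups did not overlap (log2 fold change 0.15, 95% interval 0.04 to 0.25, limma adjusted p = 0.063). Its other probe sets lay between 0.20 and 0.42 and 4 of its 6 probe sets passed over all probe sets, so the brightest gave the smallest change. With the mean over probe sets TRIM22 passed in limma (adjusted p = 0.0051), as it did in 5 of 14 alternatives. MX1 and MX2, dynamin-like GTPases that trap viral nucleoproteins and capsids, were dim and at 0.08 and 0.15. RSAD2 (viperin) makes a chain-terminating nucleotide from CTP, and its neighbour CMPK2 on chromosome 2 supplies nucleotides; they were at 0.0047 and -0.0035. RSAD2 had intensities of 9.73, 11.1 and 10.9 with miR-151a and 10.3, 10.9 and 10.4 in controls, and its groups overlapped, as did those of CMPK2, MX1 and MX2. ISG20, a nuclease, SAMD9 and SAMD9L, which restrict translation in infected cells, and TRIM21, a cytosolic antibody receptor, were at 0.05, -0.09, 0.09 and -0.01. The groups of these last 4 genes overlapped.

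The remaining members did not pass either. IFI44 had intensities of 368, 356 and 369 with miR-151a and 379 to 395 with miR-NC, lower without overlap (log2 fold change -0.09, limma adjusted p = 0.22), and its other 5 probe sets lay between -0.28 and -0.04. Its neighbour IFI44L was at -0.10, with other probe sets at -0.27 and -0.18. EPSTI1 was at 0.10 and LGALS3BP, a secreted galectin-binding glycoprotein, at 0.05. Over all 107 probe sets of the 42 members, 14 were higher and 2 lower past the threshold, beside 6.81% and 7.27% of 49293 probe sets. The 14 belonged to 6 genes, GBP1, GBP2, IFI35, PARP14, PLSCR1 and TRIM22, and probe sets of 1 gene share its transcripts.

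**Figure D3:**
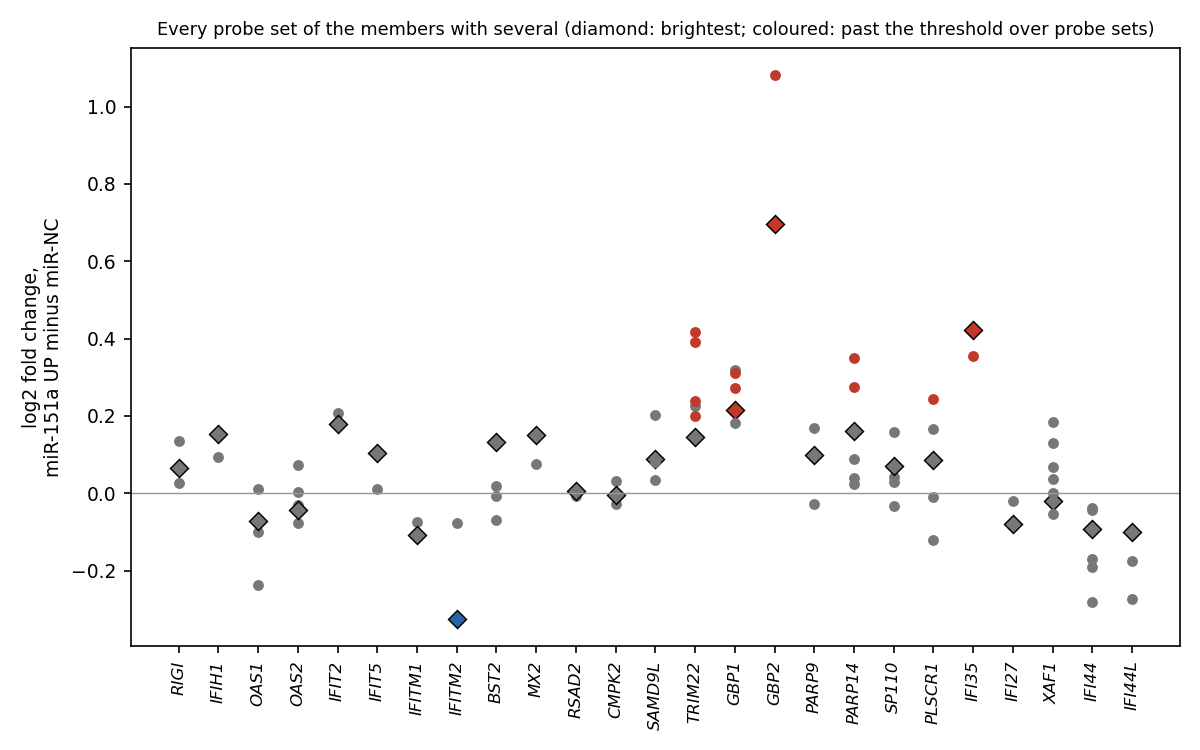
Log2 fold change (vertical axis) of every probe set of the 25 members with several, with the brightest as a diamond and those past the threshold over all probe sets coloured. The 6 probe sets of TRIM22 all lay above 0 with the brightest lowest, whereas the 2 of IFITM2 lay at -0.32 and -0.08.

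The genes around the interferon response were counted from lists that had 96 measured genes, of which 15 were higher and 1 lower, beside 7.27% and 8.11% of all genes. None of 17 measured interferon ligand genes passed in limma, with 1, IFNA14, at an unadjusted p under 0.05; all 17 lay below the array median and 14 of them below the lower quartile in all 6 samples. IFNB1, the type I interferon most cells make first, had intensities of 7.45, 7.30 and 7.59 with miR-151a and 6.60, 7.65 and 7.75 with miR-NC. Without miR-NC replicate 2, IFNA14 passed as lower (adjusted p = 0.045). Of 6 receptor genes, IFNAR2 was higher (166, 185 and 173 against 154, 136 and 142, log2 fold change 0.28, adjusted p = 0.024) and its partner IFNAR1 was lower without overlap but did not pass (-0.17, adjusted p = 0.063). IFNAR1 passed as lower under 5 of 14 alternatives. The IFNAR2 call was lost when replicate 2 or 3 of either group was left out (adjusted p from 0.064 to 0.082). Of the 3 IFNAR2 probe sets, 1 was higher past the threshold over probe sets, and those other than the brightest were at 0.13 and 0.33. Of 4 measured signalling genes, IRF9, a DNA-binding subunit of the complex that binds the ISRE, was higher (0.27, adjusted p = 0.047), and this was lost when miR-151a replicate 2 or 3, or any 1 of the 3 controls, was left out (adjusted p from 0.086 to 0.14) and with median centring (0.052).

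IRF1 had the largest change of any gene in these interferon lists. IRF1 had intensities of 425, 454 and 425 with miR-151a and 186, 185 and 202 with miR-NC. The groups lay far apart, with a 2.27-fold rise (log2 fold change 1.18, 95% interval 1.05 to 1.31, limma adjusted p = 1.8e-05), and all 4 of its probe sets rose, by 0.43 to 1.22. IRF7, the factor that amplifies type I interferon, was at 0.25 (adjusted p = 0.023; 0.15 with a pseudocount of 32), a call lost when miR-151a replicate 1 or 2, or any 1 of the 3 controls, was left out (adjusted p from 0.063 to 0.073). The other 8 factors of this list did not pass. IRF2 among them was lower without overlap (log2 fold change -0.22, limma adjusted p = 0.0504) and passed as lower under 5 of 14 alternatives. Among 19 genes of nucleic acid sensing, 3 were higher and 1 lower (15.8% and 5.26%, beside 7.27% and 8.11% of all genes). The higher ones were TRIM25, the ubiquitin ligase linked to RIGI activation, at 0.52 (432, 468 and 428 against 315, 311 and 302), TICAM1, the adaptor of TLR3, at 0.40, and the DNA sensor gene IFI16 at 0.31. The lower one was MYD88, the adaptor of most Toll-like receptors, at -0.21. The MYD88 fall rested on its brightest probe set, the other 4 lay between 0.01 and 0.15, and it was not called when miR-151a replicate 1 or 2, or any 1 of the 3 controls, was left out. With a pseudocount of 32 or a variance trend, 5 genes of this list were higher. Of 12 signalling inhibitors, 0 passed in limma, and the 3 with an unadjusted p under 0.05 were SOCS1 at -0.19, SOCS2 at 0.25 and PIAS4 at 0.14. SOCS1 passed as lower under 6 of 14 alternatives, without miR-151a replicate 3 among them, with log2 fold changes from -0.23 to -0.08. Its second probe set was at 0.03, and 0 of its 2 passed over probe sets. SOCS2 passed as higher under 3 alternatives, without miR-151a replicate 2 among them. Its second probe set was at 0.41, and 1 of its 2 passed over probe sets.

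Antigen presentation genes and interferon gamma targets were also counted, and the cause of their changes was not tested. Of 17 genes of class I antigen presentation, 4 were higher and 0 lower (23.5% and 0%, beside 7.27% and 8.11% of all genes), with a median of 0.08 (-0.01 over all genes): HLA-F at 0.41, HLA-B at 0.39, HLA-E at 0.26 and HLA-C at 0.16, where the groups did not overlap. These genes are similar in sequence, so their shares of the signal are uncertain. HLA-F had 4 of 10 probe sets higher past the threshold, and the mean over all 10 gave 0.18. HLA-B had 2 of 3 past it, HLA-E 4 of 6 and HLA-C 1 of 3. The HLA-C call was lost when any single sample was left out (adjusted p from 0.078 to 0.12) and with median centring (0.056). TAP1, the peptide transporter subunit, was at 0.05 and did not pass. Of 11 genes known for induction by interferon gamma, 4 were higher and 0 lower (36.4% and 0%, beside the same shares of all genes): the adhesion molecule gene ICAM1 at 1.11, the tryptophan tRNA synthetase gene WARS1 at 0.77, the dim chemokine gene CXCL11 at 0.42 (0.10 with a pseudocount of 32) and CD274, encoding PD-L1, at 0.37. CXCL11 did not pass when miR-151a replicate 1, or any 1 of the 3 controls, was left out. Probe sets higher past the threshold over probe sets numbered 3 of 3 for ICAM1, 3 of 4 for WARS1, 2 of 3 for CXCL11 and 2 of 4 for CD274. Those of CD274 other than the brightest ran from 0.07 to 0.55. CXCL10, a chemokine that both interferon types induce, was dim, at 12.1, 13.0 and 13.3 with miR-151a and 11.4, 13.6 and 10.1 with miR-NC.

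For contrast, 14 of 15 measured NF-kB and inflammatory genes were higher and 0 were lower (93.3% and 0%, beside 7.27% and 8.11% of all genes). Their median log2 fold change was 1.02, beside 0.04 for the interferon-stimulated genes and -0.01 for all genes. This list was chosen with its rise in these data known and is not independent evidence of its direction, and the difference between the lists was not tested. The mean log2 level of these 15 genes was at least 9.93 in the miR-151a samples and at most 9.03 in the miR-NC samples.

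**Figure D4:**
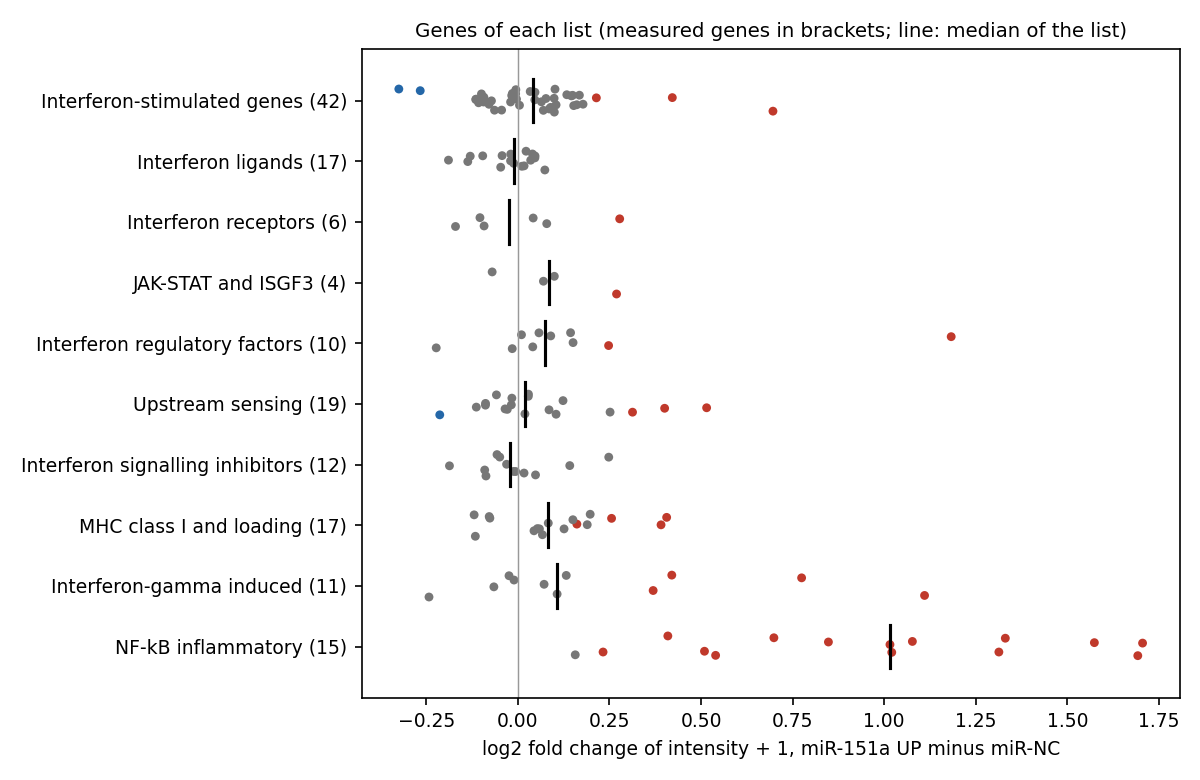
Log2 fold change (horizontal axis) of each measured gene of the interferon-stimulated genes and of 9 related lists, with red for higher and blue for lower past the threshold and a black line at each list's median. Most interferon-stimulated genes sat close to 0, with 3 red and 2 blue points, whereas 14 of 15 NF-kB and inflammatory genes were red with a median of 1.02.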

How the data were processed

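RNA from 6 samples of U87 cells was measured on 1-colour arrays, after Trizol extraction and biotin labelling by a whole-transcript protocol, per the labels. The deposited table holds linear intensities, 1 column per sample. MAS5 is named without a version or role, per the submitters' processing notes, and the sources used here do not state background correction or scaling. The arrays' quantiles were close, so a change common to most transcripts could not be detected. Control rows (102 of 49395) were dropped. Of 49293 probe sets, 44988 named 1 gene in the platform annotation, 1832 several and 2473 none, and 44961 were matched to RefSeq (GRCh38.p14) by Entrez identifier.

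The test was limma (version 3.58.1, R 4.3.3; lmFit and eBayes without covariates) on log2(intensity + 1), adjusted over 18132 genes, or over probe sets where stated. With 3 against 3 samples an exact permutation test cannot go below p = 0.1. No detection calls were used, so no gene is called absent, and the number of arrays limits precision. The scripts were tested on simulated data. The members, lists and tests were chosen with earlier results of these data known. Every member could be named; from other lists, the passing genes with the smallest p (at most 6, or 2 where none passed) and a fixed set of interferon pathway genes. IRF2, SOCS1, SOCS2, PIAS4, IFNA14, ITGAM, CSF1R and the other glioma and immune markers were named after their values were seen. The settings tried instead were quantile normalization, centring on the median, a pseudocount of 32, a filter at the 0.25 quantile of mean level, a robust fit with a variance trend, weights per array, a block for the replicate number, averaging the probe sets of a gene, and leaving each sample out. Figures were drawn with matplotlib 3.10.9.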

Additional observations from a re-analysis of the deposited data

How the results depend on the processing

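Of the called members, GBP2, IFI35 and IFI6 kept their direction and passed under all 14 alternatives, and GBP1 and IFITM2 kept their direction and passed under 8 and 9. Higher members numbered 3 and became 5 with a pseudocount of 32 (IFIT3 and TRIM22 added) and 2 to 4 without 1 sample. Lower members numbered 2 and became 1 with the replicate number as a block and 1 to 2 without 1 sample. With that block GBP1 (adjusted p = 0.11) and IFITM2 (0.054) did not pass in limma, and 10 pathway genes were higher. The labels do not say whether same-numbered samples were paired. Same-numbered samples had correlations of deviations of -0.11, -0.15 and 0.07, and samples with other numbers had -0.05 to 0.16. Deviations within a group of 3 sum to 0, so these values cannot settle whether the samples were paired. Lower genes of the pathway lists numbered 1 and became 3 with quantile normalization or median centring, 5 with a pseudocount of 32, 4 with the filter on low values or the variance trend, 2 with the mean over probe sets, 0 with the replicate block (in limma) and 0 to 2 without 1 sample. Higher ones numbered 15, were 21 with the variance trend and 10 to 13 without 1 sample. The share of all genes called was 15.4% and became 23.4% with the filter, 23.3% with the variance trend, 9.52% with the replicate block and 9.43% to 11.1% without 1 sample. The filter left 14389 genes and 39 members. The cause of these moves was not tested.

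The members' median log2 fold change of 0.04 became 0.03 (0.028) with median centring, 0.019 with a pseudocount of 32, and 0.0049 to 0.056 without 1 sample. Signs of some values near 0 turned. UBE2L6 was 0.014 with quantile normalization, TRIM21 0.018 with array weights and RSAD2 -0.0080 with median centring. With the mean over probe sets RSAD2 was -0.0011, CMPK2 0.00051, XAF1 0.050 and MYD88, a called fall, 0.020. Leaving out 1 sample gave ranges that cross 0: DDX60 -0.055 to 0.0037, ISG15 -0.034 to 0.00087, UBE2L6 -0.016 to 0.013, RSAD2 -0.030 to 0.058, CMPK2 -0.079 to 0.11, ISG20 -0.042 to 0.19, TRIM21 -0.052 to 0.031, XAF1 -0.089 to 0.053, EPSTI1 -0.0078 to 0.15, IFNB1 -0.042 to 0.059 and TAP1 -0.00044 to 0.11 (log2 fold changes).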
